A study of Mus musculus with 12 samples.

Results

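Gluconeogenesis is the synthesis of glucose from lactate, glycerol and amino acids, which the liver carries out when no food is taken in. The 10 genes described here are Pck1, G6pc, Fbp1, Pcx, Slc37a4, Got1, Mdh1, Gpt and Gpt2, which encode enzymes and a transporter of this route, and Ppargc1a, which encodes the transcriptional coactivator PGC-1alpha. They were taken by symbol as genes of the route, with earlier results of these data known, and no measured value enters the rule. All 10 were found among the 28030 genes of the table, and all 10 were among the 12086 genes that passed the filter on low counts.

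The series measured messenger RNA by sequencing in hepatocytes of 12-week-old wild-type (WT) female mice on normal chow. Its 12 libraries form 4 groups of 3: fasted pericentral (PC), fed pericentral, fasted periportal (PP) and fed periportal hepatocytes. In a liver lobule, blood enters past the periportal cells and leaves past the pericentral ones. Isolation used digitonin, per the labels, a detergent that can strip away the cells at either end of the lobule before the rest are collected. Every mouse was trained for 3 days on 16 h without food and 8 h with food, and on the day of the experiment had food together with 20% sucrose water. Fed mice were taken after 4 h of this feeding, and fasted mice 24 h after food and sucrose were removed, at the same hour of the day. The fed state is therefore one of recent sugar intake after a fast, and all comparisons are made against it. Libraries of a group are labelled as biological replicates, and whether any mouse gave both a PC and a PP library is not stated.

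In textbook accounts, pyruvate carboxylase (Pcx) makes oxaloacetate in mitochondria, and cytosolic phosphoenolpyruvate carboxykinase (Pck1) turns oxaloacetate into phosphoenolpyruvate. Cytosolic aspartate aminotransferase (Got1) and malate dehydrogenase (Mdh1) bring the carbon of oxaloacetate out of mitochondria, and alanine aminotransferases (Gpt, cytosolic, and Gpt2, mitochondrial) feed in alanine. Fructose-1,6-bisphosphatase (Fbp1) and glucose-6-phosphatase (G6pc) carry out the later irreversible steps, and Slc37a4 transports glucose 6-phosphate to G6pc in the endoplasmic reticulum. Glucagon, acting through cyclic AMP and the CREB and CRTC2 proteins, induces Pck1, G6pc and Ppargc1a, whereas insulin represses them through FOXO1. Gluconeogenesis is classically described as a periportal function of the liver.

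The promoter windows of the 3 genes known as cyclic AMP targets, Pck1, G6pc and Ppargc1a, are shown with that of Got1, which also rose with fasting in both zones. Each runs from 250 bases before to 50 bases after the annotated start, read 5′ to 3′ on the gene's strand from RefSeq on GRCm38.p6, and capitals mark matches to TGACGT, the core of the cyclic AMP response element, or to its variant TTACGT, on either strand.
Pck1 promoter, chr2:173152823-173153122, plus strand: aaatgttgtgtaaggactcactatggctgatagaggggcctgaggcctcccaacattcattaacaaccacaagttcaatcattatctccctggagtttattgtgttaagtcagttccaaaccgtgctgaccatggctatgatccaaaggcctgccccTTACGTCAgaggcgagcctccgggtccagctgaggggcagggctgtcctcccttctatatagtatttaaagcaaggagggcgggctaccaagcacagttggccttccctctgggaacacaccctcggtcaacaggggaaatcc
G6pc promoter, chr11:101367466-101367765, plus strand: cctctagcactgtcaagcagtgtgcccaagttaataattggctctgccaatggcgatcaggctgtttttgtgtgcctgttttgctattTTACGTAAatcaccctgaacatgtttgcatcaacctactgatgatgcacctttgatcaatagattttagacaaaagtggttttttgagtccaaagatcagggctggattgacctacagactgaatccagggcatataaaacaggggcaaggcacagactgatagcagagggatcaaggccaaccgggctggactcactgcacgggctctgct
Ppargc1a promoter, chr5:51567676-51567975, minus strand: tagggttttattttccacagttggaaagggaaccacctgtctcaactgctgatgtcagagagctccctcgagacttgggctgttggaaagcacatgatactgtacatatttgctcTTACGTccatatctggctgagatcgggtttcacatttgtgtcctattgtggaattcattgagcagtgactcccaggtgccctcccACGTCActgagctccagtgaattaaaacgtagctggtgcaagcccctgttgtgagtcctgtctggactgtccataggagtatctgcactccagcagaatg
Got1 promoter, chr19:43524556-43524855, minus strand: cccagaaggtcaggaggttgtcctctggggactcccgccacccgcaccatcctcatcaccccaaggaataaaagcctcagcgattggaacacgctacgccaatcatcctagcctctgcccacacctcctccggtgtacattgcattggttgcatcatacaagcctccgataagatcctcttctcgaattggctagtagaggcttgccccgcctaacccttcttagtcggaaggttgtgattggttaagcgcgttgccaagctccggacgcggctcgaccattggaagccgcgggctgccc
In the Pck1 window, TTACGT begins 93 bases before the start and overlaps ACGTCA, the other strand of TGACGT, which begins 91 bases before it. The G6pc window holds TTACGT from 162 bases before the start, overlapping its own reverse complement ACGTAA from 160 bases before it. Ppargc1a has TTACGT 135 bases and ACGTCA 50 bases before its start, apart from each other. The Got1 window has no match.

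RefSeq windows were present for 9 of the 10 genes, 12 windows in all. Besides the genes above, Slc37a4 matched in 2 of its 3 windows: 1 window has TGACGT 61 bases and ACGTAA 134 bases before its start, and an overlapping window has the same TGACGT 214 bases before a later start. Fbp1, Pcx, Mdh1 and Gpt2 had no match to either. Over all 32851 promoter windows of this length, 7.51% held TGACGT, 2.72% held TTACGT and 9.48% held either. The forkhead core TGTTTAC, searched on both strands, was in 3.65% of all windows and in none of the 12 windows of these genes. No other forkhead sequence was searched, so other forms may be present. A match is a description of letters and not a measured binding site.

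On GRCm38, the build named as mm10 in the submitters' processing notes, the genes lie as follows. Pck1 (ENSMUSG00000027513) spans chromosome 2 from 173153048 to 173159273 and G6pc (ENSMUSG00000078650) chromosome 11 from 101367561 to 101377903, both on the plus strand. Ppargc1a (ENSMUSG00000029167) spans chromosome 5 from 51454250 to 51567726 and Got1 (ENSMUSG00000025190) chromosome 19 from 43499752 to 43524605, both on the minus strand. Fbp1 (ENSMUSG00000069805) is on chromosome 13, Pcx (ENSMUSG00000024892) on chromosome 19, Slc37a4 (ENSMUSG00000032114) on chromosome 9, Mdh1 (ENSMUSG00000020321) on chromosome 11, Gpt (ENSMUSG00000022546) on chromosome 15 and Gpt2 (ENSMUSG00000031700) on chromosome 8. Mdh1 shares 52 exon bases with Wdpcp on the opposite strand, and the library kit named in the labels does not mark strand. Reads of those bases cannot be told apart.

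Libraries held 16245846 to 27449412 estimated counts. The zone labels held in the summed markers: 17 pericentral markers in the table summed to 18926 to 35713 CPM (counts scaled to a common library size by TMM) in fasted PC and 22658 to 23180 CPM in fed PC, against 922 to 2312 CPM in fasted PP and 1858 to 3036 CPM in fed PP. The 18 periportal markers summed to 7738 to 14033 CPM in fasted PC and 7987 to 9599 CPM in fed PC. In PP they summed to 18528 to 22932 CPM in fasted and 15157 to 20456 CPM in fed libraries. Not every marker separated the zones: Cps1 had 3401 to 4291 CPM in fed PC and 3420 to 5541 CPM in fed PP. Fasted PC replicate 1 stood apart, with the pericentral gene Glul, glutamine synthetase, at 172 CPM where fasted PC replicates 2 and 3 had 3639 and 2353 CPM, and the periportal serine dehydratase gene Sds at 112 CPM where they had 16.2 and 32.6 CPM. Its Glul level lay near the 79.8, 151 and 49.3 CPM of the fasted PP libraries. Of its pericentral sum of 18926 CPM, Cyp2e1 alone made up 11794 CPM. The comparisons of the fasted PC group for the 10 genes are therefore also given without fasted PC replicate 1. Sums of endothelial, Kupffer cell, stellate cell and lymphocyte markers, 8 genes each, were at most 28.1 CPM in every library, against 88763 to 168850 CPM for 7 hepatocyte markers.

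**Figure D1:**
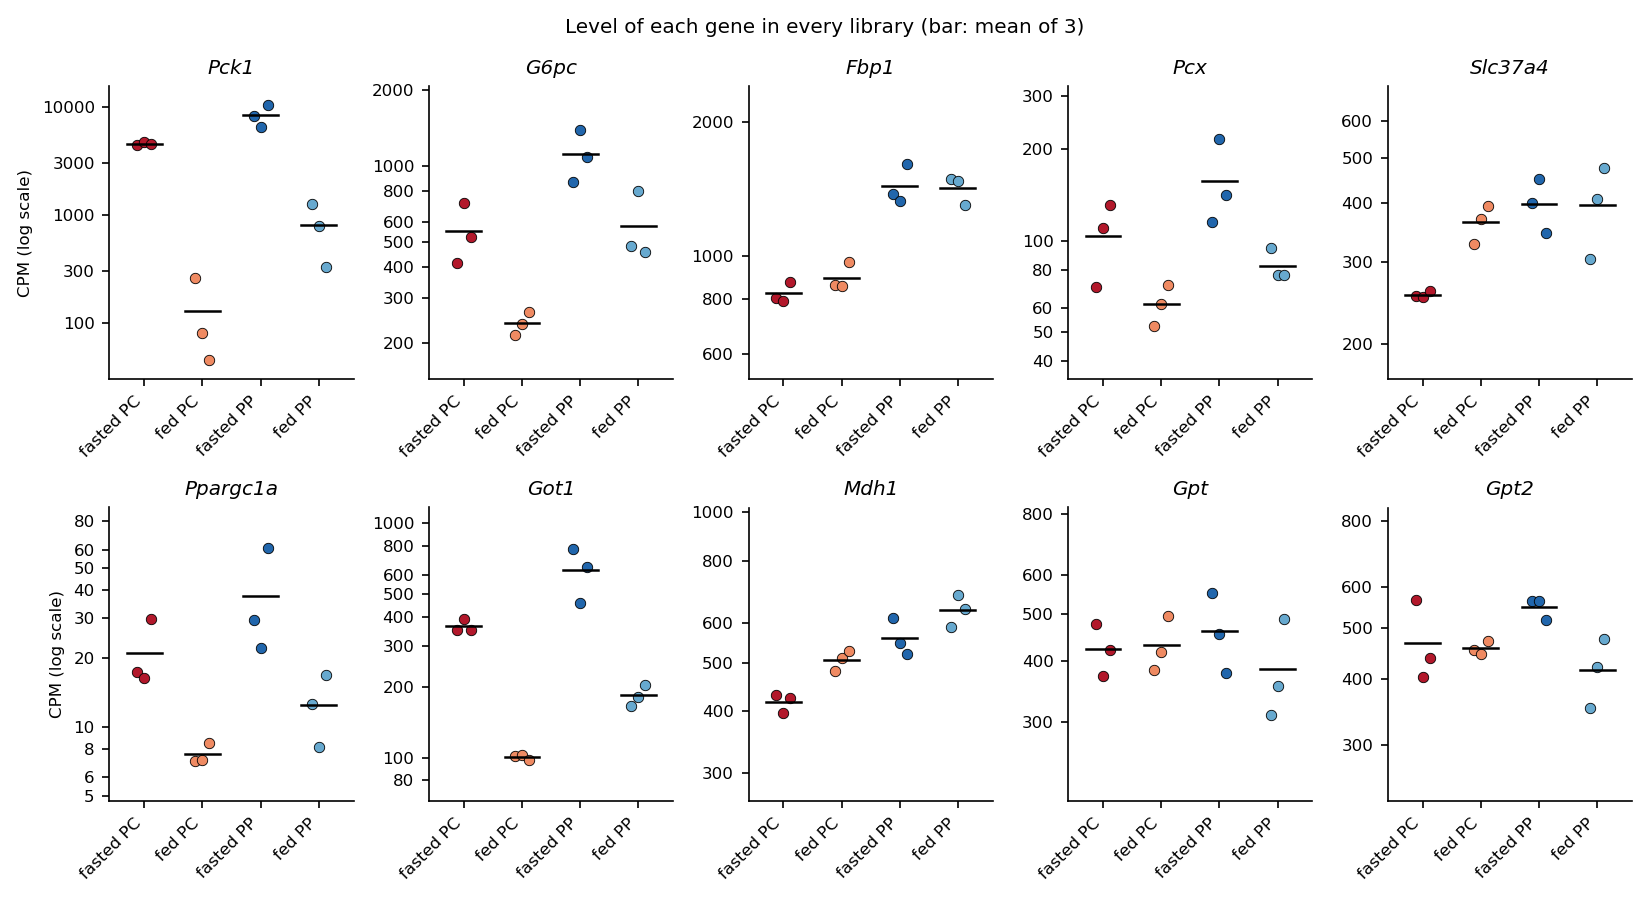
Level of each of the 10 genes in CPM (log axis, its range set per gene) in the 12 libraries, by group; points are libraries and bars are means of 3. Pck1 and Got1 have 4 groups that do not overlap. Gpt overlaps in every pair of groups, and Gpt2 in all but fasted PP against either fed group.

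Fasting raised Pck1, G6pc, Got1 and Ppargc1a in both zones and Pcx in PP, whereas Fbp1, Mdh1, Gpt and Gpt2 passed the test in neither zone. Slc37a4 fell in PC. In PC, 4 of the 10 genes rose and 1 fell at an edgeR adjusted p under 0.05, against 11.1% higher and 10.2% lower of all genes tested. In PP, 5 rose and 0 fell, against 8.39% higher and 9.5% lower of all genes. The median log2 fold change of the 10 genes was 0.39 in PC and 0.66 in PP, beside 0.0042 and 0.0049 over all genes. Fewer cells with a transcript and less of it per cell cannot be told apart in these bulk libraries.

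Every zone difference called among the 10 genes was lower in PC. In fasted mice, 0 of the 10 genes were higher in PC than in PP and 5 were lower (G6pc, Fbp1, Slc37a4, Got1 and Mdh1), against 3.35% higher and 3.05% lower of all genes. In fed mice, 0 were higher and 3 were lower (G6pc, Fbp1 and Got1), against 2.24% higher and 2.47% lower of all genes. The median log2 fold change of PC over PP was -0.72 in fasted and -0.54 in fed mice, beside -0.0015 and -0.014 over all genes. No gene was called for a difference between the zones in its response to fasting (interaction, edgeR adjusted p under 0.05), which is 0.0% of 12086 genes. At an unadjusted p under 0.05 there were 465 genes, 1 of them among the 10, and DESeq2 called 11 genes, 0 of them among the 10.

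With fasted PC replicate 1 left out, 5 of the 10 genes were called with fasting in PC and 3 between the zones in fasted mice. Over all genes, 2486 were called with fasting in PC in this fit, against 2582 with all 12 libraries. Between the zones in fasted mice, 1005 of all genes were called in this fit, against 774 with all 12 libraries. The fasting changes in PC that were called were those of Pck1 (log2 5.15, edgeR adjusted p = 0.0033), G6pc (1.36, 0.0051), Pcx (0.94, 0.017), Ppargc1a (1.59, 0.033) and Got1 (1.86, 0.00013). Fbp1 (-0.79, 0.0036), Got1 (-0.77, 0.024) and Mdh1 (-0.46, 0.035) were called between the zones in fasted mice. The uncalled fasting changes were -0.12 for Fbp1, -0.53 for Slc37a4, -0.32 for Mdh1, -0.14 for Gpt and -0.14 for Gpt2. The uncalled zone values in fasted mice were -0.87 for Pck1, -0.85 for G6pc, -0.39 for Pcx, -0.64 for Slc37a4, -0.71 for Ppargc1a, -0.22 for Gpt and -0.39 for Gpt2. For the gene lists described below, only the calls with the largest log2 fold changes per list, direction and comparison were counted without this library. Of these 29 calls in these 2 comparisons, 26 held. Those of Gpi1 (0.054) and Pfkm (0.058) with fasting and of Trib1 (0.070) between the zones did not. Calls of listed genes with smaller changes are not in this count.

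**Figure D2:**
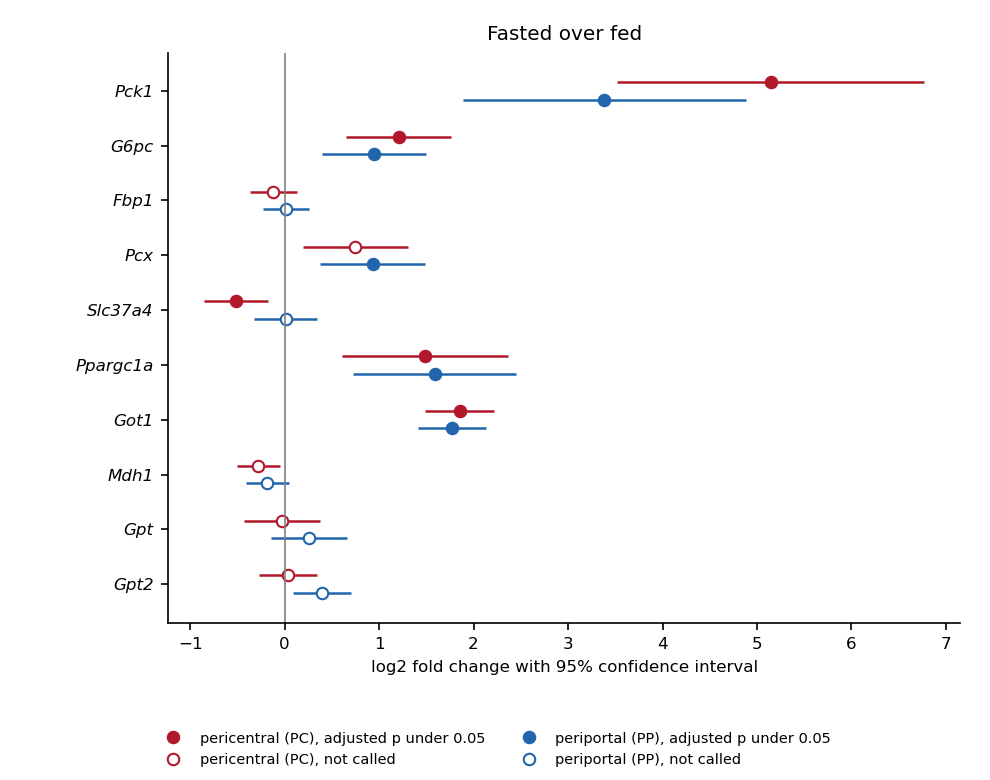
Log2 fold change of fasted over fed (x axis) for each gene in PC and PP hepatocytes, with the edgeR 95% confidence interval; filled points have an adjusted p under 0.05. Pck1 lies farthest to the right in both zones, and Got1 has the narrowest interval among the genes that rose.

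Pck1, the cytosolic carboxykinase, moved most. It stood at 4382, 4672 and 4516 CPM in fasted PC libraries, against 258, 80.5 and 45.1 CPM in fed PC libraries. In PP it stood at 8245, 6426 and 10349 CPM in fasted libraries, against 1271, 791 and 332 CPM in fed libraries. No group overlapped another: all fasted libraries of both zones lay above all fed ones, and within each state all PP libraries lay above all PC ones. The spread was uneven, with an SD of 145 CPM around 4524 CPM in fasted PC and of 114 CPM around 128 CPM in fed PC (n = 3 each). The counts behind these levels ran from 920 to 226989 per library, so counting error is small beside the spread between libraries.

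The rise of Pck1 with fasting was 35.3-fold in PC (95% confidence interval 11.4 to 109, log2 fold change 5.14 ± 0.73, SE; edgeR adjusted p = 0.0012) and 10.5-fold in PP (3.70 to 29.5, log2 3.39 ± 0.67; edgeR adjusted p = 0.0078). Both calls held under each of the 12 omissions of a library and the 5 other alternatives. The size in PC depended on fed PC replicate 1, the fed PC library with the most Pck1, without which the log2 fold change was 6.17. The difference between the 2 responses was 1.76 on the log2 scale, with an interval of -0.19 to 3.70 (edgeR adjusted p = 0.997), so it was not resolved. Between the zones, Pck1 was not called in either state. The log2 fold change of PC over PP was -2.64 ± 0.65 in fed mice (edgeR adjusted p = 0.051) and -0.88 ± 0.61 in fasted mice (edgeR adjusted p = 0.50).

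The zone difference of Pck1 in fed mice lay at the threshold. Omitting fed PC replicate 1, the library at 258 CPM, gave a call (log2 -3.67, edgeR adjusted p = 0.0072), as did omitting fed PP replicate 3, the library at 332 CPM (-3.00, adjusted p = 0.034). These 2 of 12 omissions were the only ones to give a call. Over all 12 the log2 fold change ran from -3.67 to -2.11, with edgeR adjusted p up to 0.18. DESeq2 also called the zone difference in fed mice (adjusted p = 0.0013), as did edgeR with RLE size factors (0.0497). The zone difference in fasted mice was called by edgeR only when the fasted groups were fitted alone (adjusted p = 0.034). The mitochondrial isoenzyme gene Pck2 was close to absent, at 0.181 to 2.00 CPM in every library.

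G6pc, the glucose-6-phosphatase catalytic subunit, rose in both zones and was lower in PC in both states. Fasted PC libraries had 415, 719 and 524 CPM, against 215, 238 and 266 CPM in fed PC libraries. Fasted PP libraries had 868, 1388 and 1093 CPM, against 485, 798 and 458 CPM in fed PP libraries. In each zone the fasted libraries lay above the fed ones, and in each state the PP libraries lay above the PC ones. Fasted PC and fed PP libraries overlapped, with means of 553 and 581 CPM. The log2 fold change with fasting was 1.21 ± 0.25 in PC (2.31-fold; edgeR adjusted p = 0.0059) and 0.94 ± 0.25 in PP (1.92-fold; adjusted p = 0.023).

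The call of G6pc in PC held under every alternative, and that in PP was lost on omitting fed PP replicate 1 (edgeR adjusted p = 0.074), fed PP replicate 3 (0.093) or fasted PP replicate 2 (0.081). Between the zones G6pc was lower in PC, with a log2 fold change of PC over PP of -1.01 ± 0.25 in fasted mice (edgeR adjusted p = 0.034) and -1.28 ± 0.25 in fed mice (0.012). Without fasted PC replicate 1 the fasted difference was -0.85 and was no longer called (edgeR adjusted p = 0.085). It was also not called without fasted PC replicate 3 (0.11), fasted PP replicate 2 (0.11), fasted PP replicate 3 (0.080) or fed PC replicate 2 (0.058), nor with the fasted groups fitted alone (0.064) or without the filter on low counts (0.051). The fed difference was not called without fed PC replicate 1 (0.061), fed PC replicate 2 (0.069) or fed PP replicate 2 (0.054). Over all omissions of a library the difference stayed between -1.25 and -0.83 in fasted mice and between -1.41 and -0.96 in fed mice.

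Slc37a4, the transporter that supplies G6pc with its substrate, fell in PC and had no called change in PP. It had 253, 252 and 260.2 CPM in fasted PC libraries, against 327, 371 and 395 CPM in fed PC libraries. Levels in PP were 400.0, 450.0 and 346 CPM in fasted libraries, against 303, 409 and 475 CPM in fed libraries. The fasted PC libraries lay below all others, and the other 3 groups overlapped. With fasting it fell by 0.51 ± 0.16 on the log2 scale in PC (edgeR adjusted p = 0.034), against a change of 0.01 ± 0.16 in PP (adjusted p = 0.98). The difference between these responses was -0.52 ± 0.22 (unadjusted p = 0.034, edgeR adjusted p = 0.997).

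In fasted mice Slc37a4 was lower in PC than in PP (log2 -0.64 ± 0.16, edgeR adjusted p = 0.028), and in fed mice the difference was -0.12 ± 0.16 (0.79). Omitting any 1 of the fasted PC libraries ended the call with fasting (edgeR adjusted p = 0.062 without replicate 1, 0.092 without replicate 2 and 0.069 without replicate 3), as did omitting fed PC replicate 2 (0.085) or 3 (0.13). The zone call in fasted mice was lost on omitting any fasted PC library (0.052, 0.10 and 0.076 for replicates 1, 2 and 3) or fasted PP replicate 1 (0.063) or 2 (0.092). The log2 fold change itself stayed between -0.58 and -0.45 for fasting in PC and between -0.75 and -0.55 for the zone in fasted mice.

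Fbp1, fructose-1,6-bisphosphatase, differed by zone and not detectably with fasting. It had 803, 791 and 873 CPM in fasted PC libraries, against 859, 854 and 966 CPM in fed PC libraries. In PP the levels were 1373, 1330.0 and 1605 CPM in fasted libraries, against 1488, 1472 and 1301 CPM in fed libraries. Every PC library lay below every PP library, whereas fasted and fed libraries of a zone overlapped. Fbp1 was lower in PC, with a log2 fold change of PC over PP of -0.80 ± 0.11 in fasted mice (edgeR adjusted p = 0.0014) and -0.67 ± 0.11 in fed mice (0.0045). Both calls held under each omission of a library and the 5 other alternatives. The change with fasting was -0.12 in PC, with an interval of -0.37 to 0.13, and 0.02 in PP, with an interval of -0.23 to 0.26.

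Pcx, the mitochondrial pyruvate carboxylase, was among the lower of these genes. It had 70.4, 110.2 and 131 CPM in fasted PC libraries, against 52.3, 62.0 and 71.7 CPM in fed PC libraries. In PP it had 116, 216 and 142 CPM in fasted libraries, against 94.3, 76.9 and 77.3 CPM in fed libraries. Fasted and fed libraries overlapped in PC through fasted PC replicate 1 and did not overlap in PP. The rise with fasting was 0.93 ± 0.25 on the log2 scale in PP (1.91-fold; edgeR adjusted p = 0.026), and the value in PC was 0.75 ± 0.25 (adjusted p = 0.057).

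Without fasted PC replicate 1 the change of Pcx in PC was 0.94 and was called (edgeR adjusted p = 0.017). It was also called without fasted PP replicate 1 (0.048) or 2 (0.030), and by DESeq2 (0.019). Only these 3 of 12 omissions gave a call. Over all 12 the value in PC ran from 0.53 to 0.94, with edgeR adjusted p up to 0.21. The call in PP ended without fed PP replicate 2 (0.087), fed PP replicate 3 (0.089) or fasted PP replicate 2 (0.090). Between the zones Pcx differed by -0.60 ± 0.25 in fasted mice (edgeR adjusted p = 0.21) and by -0.42 ± 0.25 in fed mice (0.47), neither of which was called.

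Got1, cytosolic aspartate aminotransferase, gave the tightest rise of the set. It had 352, 389.8 and 349.8 CPM in fasted PC libraries, against 102, 103 and 98.0 CPM in fed PC libraries. In PP, Got1 stood at 779, 458 and 650.5 CPM in fasted libraries, against 166, 182 and 205 CPM in fed libraries. As with Pck1, no group overlapped another, in the order fasted PP, fasted PC, fed PP and fed PC. Fasting raised it 3.61-fold in PC (95% interval 2.81 to 4.63; edgeR adjusted p = 3.6e-05) and 3.41-fold in PP (2.66 to 4.37; edgeR adjusted p = 6.1e-05). The log2 difference between these responses was 0.08, with an interval of -0.41 to 0.58.

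Got1 was lower in PC than in PP, with log2 fold changes of -0.79 ± 0.16 in fasted mice (edgeR adjusted p = 0.011) and -0.87 ± 0.16 in fed mice (0.0073). Of these 4 calls only the zone call in fasted mice ended under an alternative, the fit of the fasted groups alone (edgeR adjusted p = 0.056). Its mitochondrial partner Got2 had 510.1 to 640.1 CPM over all libraries and changed with fasting by -0.02 ± 0.12 in PC (edgeR adjusted p = 0.92) and 0.01 ± 0.12 in PP (0.96). The ratio of Got1 to Got2 within a library therefore moved with Got1.

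Mdh1, cytosolic malate dehydrogenase, had no called change with fasting. It had 431, 396 and 424 CPM in fasted PC libraries, against 482, 510.0 and 528 CPM in fed PC libraries. PP levels were 614, 548 and 520.5 CPM in fasted libraries, against 589, 681 and 639 CPM in fed libraries. Fasted PC libraries lay below fed PC libraries, and the PP groups overlapped. The log2 change with fasting was -0.28 ± 0.11 in PC (edgeR adjusted p = 0.079) and -0.18 ± 0.11 in PP (0.26). DESeq2 called the change in PC (adjusted p = 0.012), as did edgeR when the PC groups were fitted alone (0.043).

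In fasted mice Mdh1 was lower in PC than in PP (log2 -0.43 ± 0.11, edgeR adjusted p = 0.030), and in fed mice the difference was -0.33 ± 0.11 (edgeR 0.11, DESeq2 0.011). The call in fasted mice was lost when fasted PC replicate 2 (0.13) or 3 (0.076) was omitted, or replicate 1 (0.082) or 2 (0.057) of fasted PP, with the fasted groups fitted alone (0.10) and without the filter on low counts (0.070).

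The alanine aminotransferase genes showed no called difference in any comparison. Gpt had 476, 372 and 420.2 CPM in fasted PC libraries, against 383, 417 and 495 CPM in fed PC libraries. In PP it had 551, 453 and 377 CPM in fasted libraries, against 309, 356 and 487 CPM in fed libraries. All 4 groups of Gpt overlapped, and its intervals for fasting were -0.43 to 0.37 in PC and -0.14 to 0.66 in PP on the log2 scale.

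Gpt2 had 566, 404 and 438 CPM in fasted PC libraries, against 455, 447 and 473 CPM in fed PC libraries. In PP it had 563, 563 and 519 CPM in fasted libraries, against 352, 422 and 477 CPM in fed libraries. In PP the fasted libraries of Gpt2 lay above the fed ones and in PC they overlapped, and in PP they gave a log2 difference of 0.40 ± 0.14 (edgeR adjusted p = 0.073). DESeq2 called it (adjusted p = 0.029), as did edgeR on omitting fasted PC replicate 1 (0.034) or fed PP replicate 3 (0.049). The difference between the responses of Gpt2 in PC and PP was -0.36, with an interval of -0.79 to 0.07.

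Ppargc1a, the coactivator, was the lowest of the 10 genes. It had 17.4, 16.5 and 29.7 CPM in fasted PC libraries, against 7.11, 7.17 and 8.52 CPM in fed PC libraries. In PP it had 29.4, 22.3 and 61.4 CPM in fasted libraries, against 12.6, 8.17 and 16.9 CPM in fed libraries. Fasted libraries lay above fed ones in each zone, with fasted PP replicate 3 the highest of all. The rise was 2.79-fold in PC (95% interval 1.52 to 5.13; edgeR adjusted p = 0.023) and 3.01-fold in PP (1.66 to 5.47; edgeR adjusted p = 0.018). Without fasted PC replicate 1 these were 1.59 and 1.60 on the log2 scale (edgeR adjusted p = 0.033 and 0.023).

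The wide spread made the Ppargc1a calls depend on single libraries. The call in PC ended without fasted PC replicate 3 (log2 1.14, edgeR adjusted p = 0.086), fed PC replicate 1 (0.071), 2 (0.082) or 3 (0.061), and without the filter on low counts (0.066). The call in PP was lost on omitting fed PP replicate 1 (edgeR adjusted p = 0.052) or 2 (0.064), without the filter (0.052) and with the PP groups fitted alone (0.066). The zones overlapped in both states, and PC minus PP was -0.83 ± 0.38 in fasted mice (edgeR adjusted p = 0.26) and -0.72 ± 0.40 in fed mice (0.41). Summed over 8 immediate early response genes such as Fos, Jun and Egr1, fasted PP replicates 1, 2 and 3 had 402, 137 and 300.1 CPM, against 145, 253 and 145 CPM in fed PP, 138, 195 and 131 CPM in fasted PC and 257, 93.3 and 91.0 CPM in fed PC. Of these 8, Fosb was at 0 in all libraries of fasted PC, fasted PP and fed PP. The part of these genes in the Ppargc1a values was not tested.

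Divided by exon length, the mean levels of the genes can be set side by side. In fasted PC the order of mean CPM per kilobase of exon was Pck1 (1319), Fbp1 (483), G6pc (229), Mdh1 (162), Gpt (144), Got1 (143), Slc37a4 (89.3), Gpt2 (83.2), Pcx (21.9) and Ppargc1a (3.21). In fed PC it was led by Fbp1 (525) and Mdh1 (197), and Pck1 stood at 37.3, below all but Pcx (13.0) and Ppargc1a (1.15). In fasted PP Pck1 stood at 2432 and Fbp1 at 844, and in fed PP Fbp1 at 834 and Pck1 at 233. The other end of the set kept its place, with Pcx and Ppargc1a lowest in all 4 groups.

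**Figure D3:**
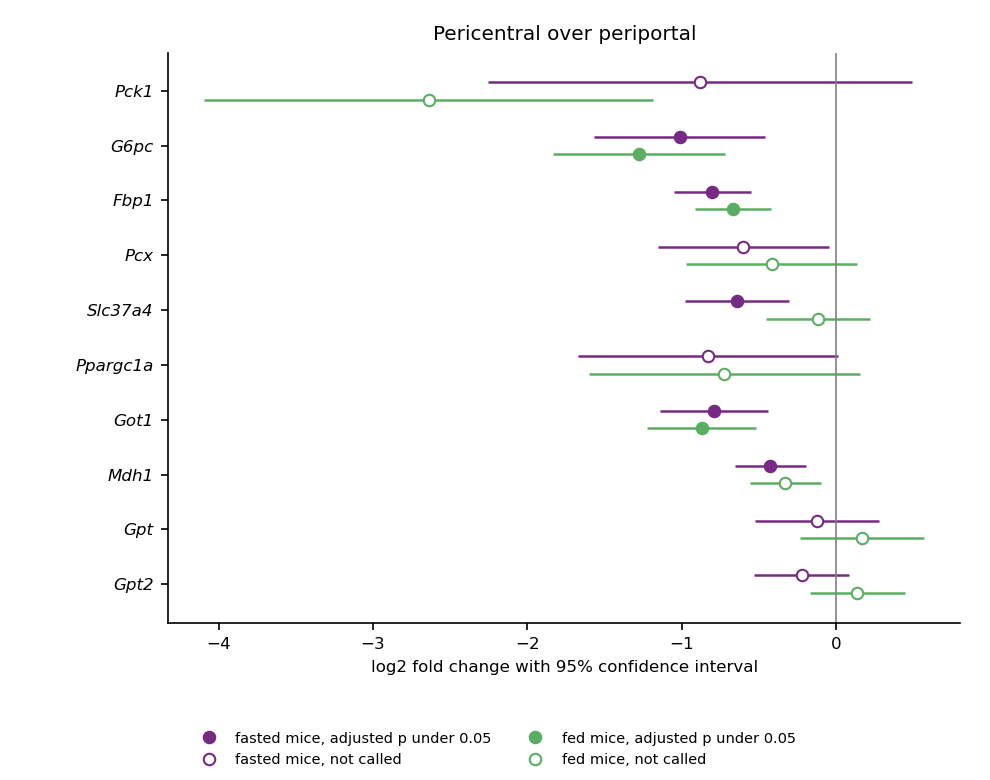
Log2 fold change of PC over PP (x axis) for each gene in fasted and fed mice, with the edgeR 95% confidence interval; filled points have an adjusted p under 0.05. Of 20 values, 18 lie left of 0, and the 2 to the right are Gpt and Gpt2 in fed mice.

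Other measures also differed between the zones. The share of albumin in the counts was 6.705% to 8.48% in PC and 10.6% to 13.2% in PP, and 13 mitochondrial genes took 6.30% to 7.92% in PC and 8.17% to 9.73% in PP. The 6 cholangiocyte markers summed to 12.5 to 23.4 CPM in fasted PC and 28.3 to 33.4 CPM in fasted PP, and to 21.4 to 26.2 CPM in fed PC and 30.5 to 36.1 CPM in fed PP. Of these, Epcam and Cftr were at 0 in all fasted PC libraries, Cftr in all fed PC libraries and Epcam in all fed PP libraries. Haemoglobin and other blood cell markers, 6 genes, summed to at most 427 CPM, in fasted PC replicate 2, and were at 1.30 to 144 CPM in fasted PP, 0.417 to 36.4 CPM in fed PC and 4.04 to 4.26 CPM in fed PP. Their part in the zone differences was not tested.

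Of 29 other genes of the route listed beside the 10, which cover the reversible steps, the glycerol and serine entries and the transporters, 27 were tested. With fasting 3 rose and 5 fell in PC, and 3 rose and 3 fell in PP, against 11.1% higher and 10.2% lower of all genes in PC and 8.39% and 9.5% in PP. Their median log2 fold change was -0.01 in PC and 0.04 in PP, close to that of all genes. Gk, glycerol kinase, rose by 1.09 ± 0.20 on the log2 scale in PC (edgeR adjusted p = 0.0024) and by 0.70 ± 0.20 in PP (0.028). Aqp9, the glycerol channel of hepatocytes, rose by 0.53 ± 0.17 in PC (0.041), and the dicarboxylate carrier gene Slc25a10 by 0.42 ± 0.12 in PP (0.028). The calls of Gk in PP, Aqp9 and Slc25a10 each ended without some single libraries, the largest edgeR adjusted p being 0.098, 0.16 and 0.10.

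Sds, serine dehydratase, which makes pyruvate from serine, combined both effects. It had 112, 16.2 and 32.6 CPM in fasted PC, 5.44, 10.8 and 6.32 CPM in fed PC, 952, 818 and 825 CPM in fasted PP and 158, 275 and 220.0 CPM in fed PP libraries. It rose by 2.83 ± 0.63 on the log2 scale in PC (edgeR adjusted p = 0.012) and by 1.99 ± 0.59 in PP (0.045). Without fasted PC replicate 1, its highest PC library, the rise in PC was 1.68 and still called. The call in PC ended without fed PC replicate 3 (0.053) and with the PC groups fitted alone (0.060), and that in PP ended in 9 of 12 omissions of a library, with adjusted p up to 0.13. PC was lower than PP, with a log2 fold change of -4.01 ± 0.65 in fasted mice (0.0061) and -4.85 ± 0.68 in fed mice (0.0034). The value in fasted mice was -5.15 without fasted PC replicate 1 (7.7e-05). That library was set apart partly by its high Sds, so the shifts of Sds without it follow from its choice and are no separate check.

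Among the genes of the route that fell with fasting, Tkfc, triokinase, an enzyme of fructose use, fell by 2.36 ± 0.21 on the log2 scale in PC (edgeR adjusted p = 2.9e-05) and by 1.08 ± 0.20 in PP (0.0029), with 157 to 242 CPM in fasted PC against 836 to 1280.5 CPM in fed PC, and 469.5 to 565 CPM in fasted PP against 927 to 1318 CPM in fed PP. The difference between these responses was -1.28 ± 0.28 in edgeR (adjusted p = 0.997) and -1.30 ± 0.29 in DESeq2, where it was called (adjusted p = 0.016). Gpi1, glucose-6-phosphate isomerase, fell by 1.11 ± 0.29 in PC (edgeR adjusted p = 0.018) and by 1.12 ± 0.29 in PP (0.020), and Gpd2, mitochondrial glycerol-3-phosphate dehydrogenase, by 1.46 ± 0.35 in PC (0.013). The calls of Gpi1 in both zones ended without some single libraries (adjusted p up to 0.077 in PC and 0.083 in PP), and that of Gpd2 without fed PC replicate 3 (0.051).

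Between the zones, 2 of the 27 were higher in PC and 7 lower in fasted mice, against 3.35% higher and 3.05% lower of all genes. In fed mice 1 was higher and 4 lower, against 2.24% higher and 2.47% lower of all genes. Aqp9 was higher in PC, by 1.53 ± 0.17 on the log2 scale in fasted mice (edgeR adjusted p = 0.00041) and 1.35 ± 0.17 in fed mice (0.00073), opposite in direction to the zone differences called among the 10 genes. Gk was higher in PC in fasted mice by 0.77 ± 0.20 (0.035), a call that ended in 8 of 12 omissions (adjusted p up to 0.13). Besides Sds, the lower genes were led by Sdsl, a serine dehydratase-like gene, at -3.39 ± 0.46 in fasted (0.0019) and -3.48 ± 0.48 in fed mice (0.0022), and in fasted mice by Tkfc (-1.33 ± 0.20, adjusted p = 0.0019). Sdsl was at -4.35 in fasted mice without fasted PC replicate 1. It is also among the periportal markers summed above, so its direction was known beforehand and its place in these counts is no separate result. In fed mice the aspartate carrier gene Slc25a12 (-0.64 ± 0.16, 0.036) and Eno1, enolase (-0.44 ± 0.11, 0.047), were lower, calls that ended in 8 and 11 of 12 omissions (adjusted p up to 0.15 and 0.22).

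Glycolysis and pyruvate oxidation run against gluconeogenesis. The 16 genes listed for them also include kinases that inactivate pyruvate dehydrogenase, such as Pdk2 and Pdk4. Rises and falls in this list therefore differ in meaning from gene to gene. With fasting 2 were higher and 5 lower in PC, against 11.1% higher and 10.2% lower of all genes. In PP 3 were higher and 3 lower, against 8.39% and 9.5% of all genes. The median log2 fold change of the list was -0.31 in PC and -0.07 in PP. Pklr, liver pyruvate kinase, fell by 2.85 ± 0.32 on the log2 scale in PC (edgeR adjusted p = 0.00021) and by 2.03 ± 0.31 in PP (0.0014). Pdhb, a pyruvate dehydrogenase subunit, fell by 1.25 ± 0.15 in PC (0.00019) and by 0.84 ± 0.14 in PP (0.0021). These 4 calls held under all 12 omissions of a library. Pfkfb3, which makes the activator of phosphofructokinase, fell in PC by 2.38 ± 0.48 (0.0057), at 1.08 to 5.60 CPM in fasted against 12.9 to 20.3 CPM in fed libraries. Its log2 fold change was -3.05 without fasted PC replicate 3.

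Among the genes of this list that rose, Pdk4, a kinase that inactivates pyruvate dehydrogenase, had 26.2, 60.6 and 101 CPM in fasted PP libraries, against 4.31, 4.27 and 9.31 CPM in fed PP libraries (log2 3.40 ± 0.78, edgeR adjusted p = 0.016). That call ended without fed PP replicate 1 (0.060) or 2 (0.066). Pdk2, of the same family, rose by 0.61 ± 0.13 in PC (0.0066) and by 0.47 ± 0.13 in PP (0.028), and the phosphatase gene Pdp2 by 0.78 ± 0.19 in PP (0.013). Pfkm, a phosphofructokinase gene, rose by 0.67 ± 0.17 in PC (0.015). The calls of Pdk2 and Pdp2 in PP and of Pfkm ended without some single libraries (adjusted p up to 0.084, 0.055 and 0.071). Between the zones 0 of the 16 were called in fasted mice, against 3.35% higher and 3.05% lower of all genes. There 5 had an unadjusted edgeR p under 0.05, beside 2338 of all 12086 genes, and DESeq2 called 1, beside 1131 of all genes. In fed mice 1 was lower in PC (Pfkm, -0.66 ± 0.17, edgeR adjusted p = 0.045), against 2.24% higher and 2.47% lower of all genes. The Pfkm call ended in 9 of 12 omissions (adjusted p up to 0.20). In fed mice 9 of the 16 had an unadjusted edgeR p under 0.05, beside 2017 of all genes, and DESeq2 called 5, beside 929 of all genes.

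**Figure D4:**
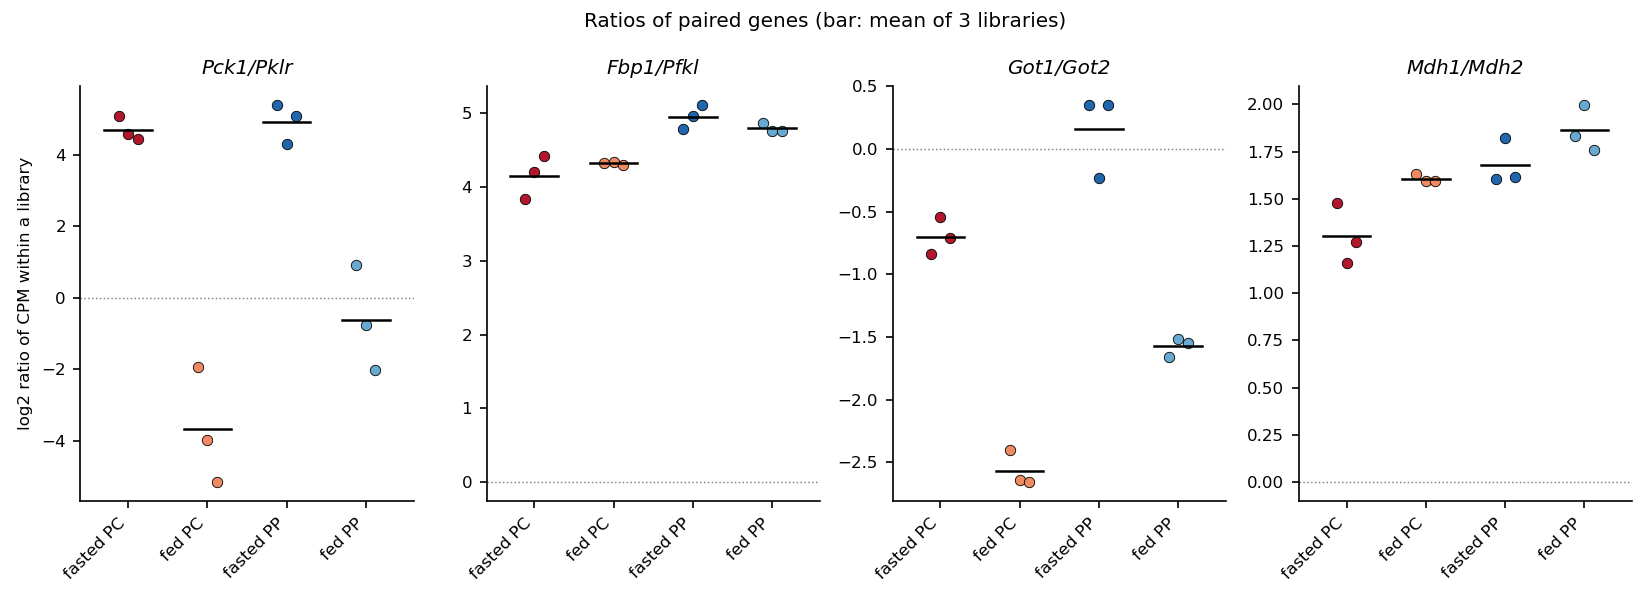
Log2 ratio of CPM of paired genes within a library (y axis), by group; points are libraries and bars means of 3. Pck1 over Pklr separates fasted from fed libraries, and Fbp1 over Pfkl separates the zones.

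Ratios of opposed enzymes within a library, which do not depend on library scaling, put these changes side by side. The log2 ratio of Pck1 to Pklr was 4.70 ± 0.34 in fasted PC and -3.69 ± 1.64 in fed PC (SD, n = 3 each), and 4.93 ± 0.56 in fasted PP and -0.63 ± 1.47 in fed PP. It overlapped between the zones in each state.

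The ratio of Fbp1 to Pfkl, liver phosphofructokinase, differed by -0.17 (log2) between fasted and fed PC and by 0.16 between fasted and fed PP, with overlapping libraries. PC lay below PP without overlap, and PC minus PP was -0.80 in fasted and -0.48 in fed mice. The log2 ratio of Got1 to Got2 rose by 1.87 in PC and 1.73 in PP without overlap, that of Mdh1 to Mdh2 differed by -0.30 in PC and -0.18 in PP, and that of Gpt2 to Gpt by 0.05 and 0.13 with overlap. Each exact two-sided permutation test of 3 against 3 libraries cannot give a p below 0.1, and over the 24 tests run the smallest adjusted p was 0.16, so these ratios are descriptions.

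**Figure D5:**
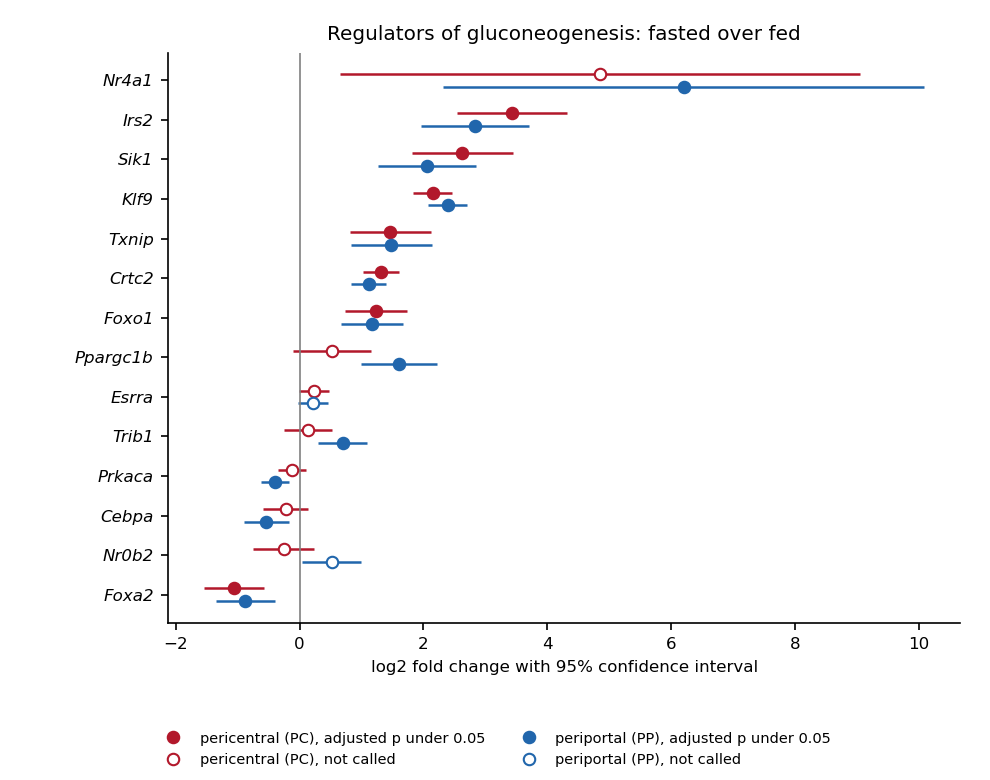
Log2 fold change of fasted over fed (x axis) for the regulators named in the text, ordered by the value in PC, with the edgeR 95% confidence interval; filled points have an adjusted p under 0.05. Nr4a1, at the top, has the widest interval, and Klf9 stands near 2 with a narrow one in both zones.

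Of 35 regulators of gluconeogenesis listed from the glucagon, insulin and glucocorticoid pathways and their transcription factors, 34 were tested. With fasting 13 rose and 2 fell in PC, and 15 rose and 3 fell in PP, against 11.1% higher and 10.2% lower of all genes in PC and 8.39% and 9.5% in PP. The same 11 genes rose in both zones, which is 11 of 13 in PC and 11 of 15 in PP, beside 56.8% and 75.4% of all genes called higher in PC and in PP. The list's median log2 fold change was 0.30 in PC and 0.40 in PP. Between the zones 0 of the 34 were higher in PC and 4 lower in fasted mice, against 3.35% higher and 3.05% lower of all genes. In fed mice 0 were higher and 1 lower, against 2.24% higher and 2.47% lower of all genes.

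Klf9, a transcription factor induced by glucocorticoids, rose by 2.15 ± 0.14 on the log2 scale in PC (edgeR adjusted p = 4.6e-06) and by 2.39 ± 0.15 in PP (2.2e-06). Irs2, the insulin receptor substrate that FOXO and CREB induce, rose by 3.43 ± 0.40 in PC (0.00033) and by 2.83 ± 0.39 in PP (0.0010). Sik1, a kinase that restrains CRTC2, rose by 2.63 ± 0.37 in PC (0.00094) and by 2.05 ± 0.36 in PP (0.0036). Txnip, which limits glucose uptake, rose by 1.46 ± 0.30 in PC (0.0057) and by 1.48 ± 0.30 in PP (0.0064). The calls of these 4 genes in both zones held under all 12 omissions of a library.

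Crtc2 and Foxo1, named here for their roles after their values were seen, rose too. Crtc2, the coactivator of CREB, had 41.7, 41.2 and 36.6 CPM in fasted PC libraries, against 18.6, 15.6 and 13.8 CPM in fed PC libraries, and 35.4, 38.2 and 36.0 CPM in fasted PP against 17.7, 14.4 and 18.5 CPM in fed PP libraries. Foxo1 had 44.4, 55.8 and 77.3 CPM in fasted PC against 27.6, 24.6 and 23.6 CPM in fed PC libraries, and 42.1, 46.5 and 77.1 CPM in fasted PP against 25.0, 24.3 and 24.3 CPM in fed PP libraries. In each zone the fasted libraries of both genes lay above the fed ones.

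Nr4a1, an immediate early nuclear receptor gene, was uneven. It had 81.0, 0.615 and 36.5 CPM in fasted PP libraries, against 0.298, 0.657 and 0.676 CPM in fed PP libraries (log2 6.20 ± 1.72, edgeR adjusted p = 0.036), and the call ended in 8 of 12 omissions (adjusted p up to 0.11). Without fasted PP replicate 1 the log2 fold change was 5.13. The 2 high libraries were also those with the most early response transcripts, whose part in this value was not tested. Foxa2, a hepatocyte forkhead factor, fell by 1.06 ± 0.22 in PC (0.0055) and by 0.87 ± 0.22 in PP (0.017). Cebpa fell by 0.54 ± 0.17 in PP (0.045), and Prkaca, the catalytic subunit of protein kinase A, by 0.40 ± 0.10 in PP (0.019). The calls of Foxa2, Cebpa and Prkaca in PP ended without some single libraries (adjusted p up to 0.067, 0.13 and 0.072).

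Each regulator called between the zones was lower in PC. Ppargc1b, the paralog of Ppargc1a, had 7.47, 4.39 and 3.71 CPM in fasted PC libraries, against 13.6, 12.7 and 21.8 CPM in fasted PP libraries, a log2 difference of -1.62 ± 0.28 (edgeR adjusted p = 0.0044). Nr0b2, a repressor of nuclear receptors also known as SHP, was lower in fasted PC (log2 -1.39 ± 0.23, 0.0030). Esrra, a nuclear receptor that works with PGC-1alpha, was lower in PC, at -0.56 ± 0.11 in fasted mice (0.010) and -0.57 ± 0.11 in fed mice (0.011), and the call in fed mice was lost on omitting fed PC replicate 1 (0.055) or fed PP replicate 3 (0.0505). Trib1, a pseudokinase gene, was lower in fasted PC (log2 -0.71 ± 0.18, 0.033), a call that ended in 5 of 12 omissions (adjusted p up to 0.11).

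The genes whose profile over the 12 libraries was most like that of 3 of the genes were found by the root mean square difference of centred log2 CPM among 8137 genes. Nearest to Pck1 was Slc8b1, a mitochondrial sodium-calcium exchanger, at 1.07, followed by Gadd45g (1.17) and Irs2 (1.28), while Pck1 itself varied by 2.59 on this scale. Slc8b1 averaged 85.5 ± 24.0 CPM in fasted PC and 7.74 ± 2.65 CPM in fed PC, and 125 ± 5.58 CPM in fasted PP and 21.8 ± 7.14 CPM in fed PP (SD, n = 3 each). Nearest to G6pc, which varied by 0.83, were Slc40a1, the iron exporter ferroportin (0.30), Slc25a47 (0.31) and Map4k4 (0.33). Nearest to Ppargc1a, which varied by 0.89, were Rab11fip4 (0.32), Tat, tyrosine aminotransferase (0.36), and Slc19a1, a folate carrier (0.38). Tat averaged 2953 ± 989 CPM in fasted PC and 1307 ± 290 CPM in fed PC, and 3824.5 ± 1598 CPM in fasted PP and 1837 ± 489 CPM in fed PP.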

How the data were processed

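Total RNA of isolated hepatocytes was sequenced from libraries made, per the labels' protocols, with the NEBNext Ultra RNA kit, which keeps no strand information. The authors deposited 1 table of estimated counts by gene identifier for 12 libraries, in 4 groups of 3, and the submitters' processing notes name kallisto 0.46.0 and mm10. How transcripts were summed to genes is not given in the sources used here. Identifiers were named from GENCODE M21, which held 27645 of 28030.

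Estimated counts were rounded to whole numbers, which moved no library total by more than 121. Genes were filtered with filterByExpr, scaled by TMM and tested with edgeR 4.0.16 (R 4.3.3, limma 3.58.1) by the robust quasi-likelihood test, with 1 mean per group and all 12 libraries sharing the spread (8 residual degrees of freedom). Adjusted p-values are Benjamini-Hochberg over 12086 genes, called under 0.05, and unlabelled adjusted p-values following an edgeR value in a paragraph are from the same test. SE is the log2 fold change divided by the root of F. Intervals are at 95%. CPM uses TMM-scaled library sizes, and CPM per kilobase divides by union exon length. The analysis was tested on simulated data.

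Alternatives were RLE size factors, no filter on low counts, DESeq2 1.42.0, a fit of only the 2 groups compared, the replicate number as a block, and leaving out each library. Ratios within libraries were compared by exact two-sided permutation tests. The 10 genes, the gene lists and the markers were chosen with earlier results of these data known. From each list, up to 4 called genes per direction and comparison with the largest log2 fold change were named, and for Pck1, G6pc and Ppargc1a the 3 most alike genes with a mean CPM of at least 5 (pseudocount 0.5). Some genes that this rule names are not reported here. The labels call the replicates biological but do not say that each was a separate mouse. The p-values rest on variation among the libraries, which may be technical in part. Same-numbered PC and PP libraries deviated together with r of 0.27, 0.024 and 0.15 in fed mice and 0.19, -0.12 and 0.094 in fasted mice. Different-numbered ones had r from -0.21 to 0.068 in fed and from -0.27 to 0.22 in fasted mice. No label pairs the libraries, so the numbers were not taken as pairs in the main fit. Whether a number joins libraries of the same mouse remains unknown. Replicates differed by more than counting noise (chi-square per degree of freedom 23.9 to 79.8).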

Additional observations from a re-analysis of the deposited data

How the results depend on the processing

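Of 18 calls among the 10 genes, 8 held under every alternative run: Pck1 and Got1 with fasting in both zones, G6pc with fasting in PC, Fbp1 between the zones in both states and Got1 between the zones in fed mice. Genes called in fasted mice between the zones numbered 3 of 10 without the filter on low counts and 3 with only the 2 groups compared, against 5, and DESeq2 called 5 in fed mice, against 3. Leaving out a library gave 3 to 6 calls with fasting in PC, 3 to 6 in PP, 2 to 5 between the zones in fasted and 2 to 4 in fed mice, and 0 for the interaction. Without fasted PC replicate 1 the counts were 5, 6, 3, 3 and 0. With the replicate block they were 5, 5, 6, 4 and 0. Over all genes the block called 2696, 2223, 796, 625 and 0, against 2582, 2162, 774, 570 and 0 in the main fit. Leaving out a library gave 1593 to 2618, 1405 to 2414, 386 to 1005, 292 to 701 and 0 to 2 of all genes. Without the filter, 667 of all genes were called between the zones in fasted mice. The block added Pck1 in fed mice (log2 -2.75, edgeR adjusted p = 0.039) and Ppargc1a in fasted mice (-0.77, 0.037), and ended the calls of Sds (0.082) and Nr4a1 (0.078) with fasting in PP and of Gk between the zones in fasted mice (0.059).

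Values that changed sign when a library was left out were all uncalled. They ran from -0.061 to 0.073 for Fbp1, -0.14 to 0.16 for Slc37a4 with fasting in PP, -0.14 to 0.081 for Gpt and -0.14 to 0.13 for Gpt2 with fasting in PC, -0.26 to 0.0057 for Gpt between the zones in fasted mice and -0.26 to 0.047 for Slc37a4 in fed mice. In the interaction they ran from -0.071 to 0.42 for G6pc, -0.13 to 0.23 for Got1, -0.41 to 0.085 for Pcx and -0.45 to 0.41 for Ppargc1a. Size factors turned no sign among the 10 genes. Over all genes, 376 were called between the zones in fasted mice with only those groups fitted, against 774, and 929 by DESeq2 in fed mice, against 570. The interaction called 1 gene without the filter and 2 without fasted PC replicate 1, against 0. In the glycolysis list 1, 1 and 2 genes were called between the zones in fasted mice without the filter, by DESeq2 and with the block, against 0, and 2, 5, 2 and 4 in fed mice without the filter, by DESeq2, with only 2 groups and with the block, against 1. Among regulators in fed mice DESeq2 called 3 and the fit of 2 groups 2, against 1, and in the interaction of the pathway list DESeq2 called 1, against 0. The causes were not tested.

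Fitting only the groups compared also ended the calls of Sds between the zones in fasted mice (edgeR adjusted p = 0.069), and those of Gk (0.061), Slc25a10 (0.065), Nr4a1 (0.089) and Prkaca (0.063) with fasting in PP, of Trib1 (0.057) between the zones in fasted mice, and of Slc25a12 (0.053), Eno1 (0.061) and Pfkm (0.057) in fed mice.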
